A study of Rattus norvegicus with 288 samples.

Results

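The comparison described here is that of the hearts of rats killed 24 h after oral sunitinib with those of rats killed 24 h after oral sterile water, the vehicle of sunitinib. Its members are 16 heart arrays of the 96 heart arrays and 288 arrays of the series. The rule used the sample titles and no signal: every heart taken at 24 h whose second agent was Sunitinib at 5 mg/kg (8 rats) or sterile water (8 rats). Each of the 96 rats of the series gave heart, liver and bone marrow, was male, of the Sprague-Dawley strain and 7 to 8 weeks old, and received an intravenous first agent and, 30 min later, an oral second agent. The groups of 4 rats each were Temsirolimus at 0.3 mg/kg then Sunitinib, TEM_vehicle then Sunitinib, Temsirolimus then sterile water, and TEM_vehicle then sterile water, so all 16 rats had received an injection before the oral dose and 8 of them carried temsirolimus, an inhibitor of the mTOR kinase. The other oral drug of the series, sorafenib at 25 mg/kg, had its own vehicle, F68/PG/PEG400. Hearts were taken as the apex with the left and right ventricles, and all values are from a single dose in healthy young males. Within each group the 2 lower and the 2 higher rat numbers were treated as separate array sets. These sets are a block of the fit formed from the rat numbers, and the sample titles do not say which arrays were processed together. The methods state that rats were dosed on consecutive days without saying which rat was dosed on which day.

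Sunitinib blocks receptor tyrosine kinases of the VEGF receptor, PDGF receptor, KIT, FLT3, CSF1R and RET families. In the heart, VEGF receptors lie mainly on endothelial cells, PDGF receptor beta on pericytes and smooth muscle, PDGF receptor alpha on fibroblasts, and CSF1R on macrophages. Signals from these receptors run through RAS and ERK to early response genes and to feedback inhibitors such as the Sprouty proteins, and in endothelium they act beside the flow-responsive transcription factors KLF2 and KLF4. Sunitinib is known clinically for raised blood pressure and loss of cardiac function in some patients. The comparison asks which heart transcripts differed 1 day after a single dose.

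Signals are on the log2 scale of RMA (robust multi-array average, which corrects background, normalizes arrays to each other and summarises the probes of a set), so that a difference of 1 is a doubling. A change is the mean over both first agents of sunitinib minus sterile water, with array set as a block, from a limma fit over all 96 heart arrays. A gene was called where the Benjamini-Hochberg adjusted p over 14218 genes was under 0.05. The median standard error of a change was 0.07. The closest pair of heart arrays was 32.8 apart (Euclidean distance over all probe sets), and no array was a copy of another.

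The 9 measured cardiomyocyte markers averaged 14.11 to 14.23 in the 8 sunitinib hearts and 14.13 to 14.23 in the 8 water hearts, as the tissue label says. Hepatocyte markers, whose transcripts belong to liver, did not sit at one level. The mean of the 13 measured hepatocyte markers was 11.98, 11.22, 8.56 and 8.56 in the 4 sunitinib hearts of the lower rat numbers, against 6.38, 6.21, 7.78 and 6.31 in the water hearts of the lower rat numbers (Temsirolimus first, then TEM_vehicle, in each). In the higher rat numbers it was 5.97 to 6.14 in sunitinib hearts and 6.03 to 6.09 in water hearts. The markers therefore ran with sunitinib in 1 array set and with neither group in the other. Their median change was 1.76 over all 16 hearts, with 11 of 13 higher at an unadjusted p under 0.05 and 0 of 13 called, 3.58 within the lower rat numbers and 0.04 within the higher rat numbers. Levels from 5.76 to 14.23 occurred among the other heart arrays of the series. The called genes and the proliferation genes are therefore also given below within the higher rat numbers, without the 5 hearts whose hepatocyte level was over 7 (an alternative chosen after seeing the data), and with the hepatocyte level of each heart as a covariate.

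**Figure D1:**
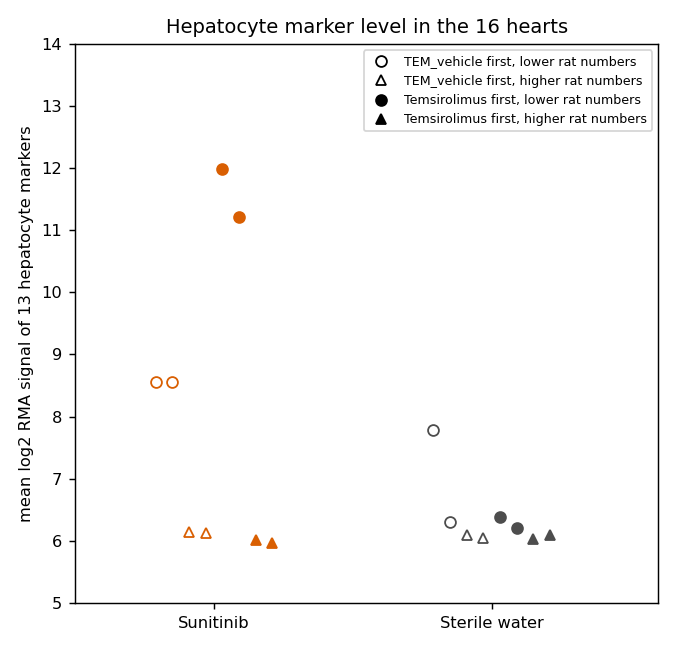
Mean log2 RMA signal of 13 hepatocyte markers (vertical axis) in each of the 16 hearts, sunitinib on the left and sterile water on the right, with the first agent shown by filled or open symbols and the array set by circles or triangles. The 4 sunitinib circles lie at 8.56 to 11.98, while all triangles lie at 5.97 to 6.14.

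Blood signal also varied. The mean of 7 erythroid markers ran from 8.64 to 10.31 in sunitinib hearts and from 8.49 to 10.16 in water hearts, highest in 1 rat of each. Endothelial markers averaged 10.18 to 10.25 in sunitinib hearts and 10.15 to 10.43 in water hearts, and macrophage markers 8.42 to 8.87 in sunitinib hearts and 8.40 to 9.01 in water hearts. The mean of 5 atrial muscle markers ran from 7.85 to 8.99 in sunitinib hearts and from 7.62 to 8.73 in water hearts, a difference of 0.38 between the group means. None of these lists held a called gene.

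Few genes passed the test at 24 h. Of 14218 genes 3 were called, all lower (0.0211%), and 0 were called higher (0%). The 3 genes were Klf2 and Klf4, zinc-finger transcription factors that respond to blood flow in endothelium, and Pclaf, which codes for a small protein that binds the DNA replication clamp PCNA. At an unadjusted p under 0.05 there were 667 genes higher (4.69%) and 1035 lower (7.28%). The fit on the 16 arrays alone called 2 genes. With each rat left out the count was 1 to 3, except for 161 without rat 1M6 (TEM_vehicle then sterile water) and 66 without rat 7M84 (TEM_vehicle then Sunitinib). It was 123 in the lower rat numbers alone, 112 of them higher, and 0 in the higher rat numbers alone. Without the other heart arrays of high hepatocyte level, which share the estimate of the spread, it was 258 (195 higher and 63 lower), and with the hepatocyte level as a covariate 24 (12 higher and 12 lower), so neither the number of calls nor their single direction held.

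Klf2 stood at 10.31, 10.43, 10.45 and 10.35 in hearts given Temsirolimus then Sunitinib and at 10.12, 10.04, 9.94 and 10.37 in hearts given TEM_vehicle then Sunitinib. In the water hearts it stood at 10.95, 10.79, 11.07 and 10.81 after Temsirolimus and at 10.87, 10.78, 10.63 and 10.63 after TEM_vehicle. Every sunitinib heart was below every water heart. Of all genes 2 were lower in this way (0.0141%) and 2 were higher (0.0141%). Klf2 averaged 10.25 ± 0.19 in sunitinib hearts and 10.82 ± 0.15 in water hearts (SD, n = 8 each), a change of -0.56 ± 0.09 (SE, limma adjusted p = 0.00099), or 0.676 times the water level (95% interval 0.594 to 0.770). The change was -0.51 within the higher rat numbers and -0.62 within the lower, and the call held with each of the 16 rats left out in turn (changes of -0.60 to -0.53, adjusted p at most 0.011). In bulk tissue, fewer cells of a type and less RNA per cell cannot be told apart.

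The Klf2 value rests on 1 of 5 probe sets. The probe set used had the highest mean signal over the hearts (10.56). The next brightest had a mean of 9.05 and a change of 0.11 ± 0.07 (SE, unadjusted p = 0.10). The remaining 3, with means of 4.81 to 7.50, had changes of -0.22 ± 0.15, -0.01 ± 0.06 and 0.00 ± 0.06. The probe sets disagreed, and the mean over all 5 gave a change of -0.13 with an adjusted p of 0.32. Which exons each set reads was not analysed here.

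Klf4, read by a single probe set, stood at 9.97, 9.95, 10.08 and 9.96 in hearts given Temsirolimus then Sunitinib and at 9.71, 9.56, 9.24 and 9.88 in hearts given TEM_vehicle then Sunitinib. In water hearts it stood at 10.22, 10.32, 10.30 and 10.20 after Temsirolimus and at 10.09, 10.27, 10.08 and 10.19 after TEM_vehicle. The lowest value, 9.24, was that of rat 7M83, and the highest sunitinib heart met the lowest water heart at 10.08. Klf4 averaged 9.79 ± 0.28 in sunitinib hearts and 10.21 ± 0.09 in water hearts (SD, n = 8 each), a change of -0.41 ± 0.09 (SE, adjusted p = 0.047) or 0.751 times the water level (95% interval 0.665 to 0.847). It was -0.40 within the higher rat numbers and -0.42 within the lower, but the call was held in only 2 of the 16 fits that left out a rat, with an adjusted p of 0.29 without rat 7M83.

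Pclaf, also read by a single probe set, stood at 6.25, 5.68, 6.80 and 5.18 in hearts given Temsirolimus then Sunitinib and at 6.05, 6.89, 5.93 and 7.30 in hearts given TEM_vehicle then Sunitinib. In water hearts it stood at 6.86, 7.11, 6.96 and 7.08 after Temsirolimus and at 7.62, 7.60, 8.10 and 7.57 after TEM_vehicle. Within each first agent every sunitinib heart was below every water heart, while the pooled groups overlapped. Pclaf averaged 6.26 ± 0.70 in sunitinib hearts and 7.36 ± 0.43 in water hearts (SD, n = 8 each), a change of -1.10 ± 0.23 (SE, adjusted p = 0.047) or 0.466 times the water level (95% interval 0.338 to 0.641). It was -1.13 within the higher rat numbers and -1.08 within the lower. The call was held in 5 of the 16 fits that left out a rat, with an adjusted p of 0.39 without rat 5M60, the lowest value.

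Without the 5 hearts whose hepatocyte level was over 7 the changes were -0.54 for Klf2, -0.44 for Klf4 and -1.20 for Pclaf, and none of the 3 was called (adjusted p = 0.29 for each). The higher rat numbers alone, 4 hearts against 4, also gave no call, at an adjusted p of 0.91 for each of the 3. With the hepatocyte level as a covariate Klf2 and Pclaf were called (-0.50 and -1.18, adjusted p = 0.012 for each) and Klf4 was not (-0.36, adjusted p = 0.054).

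**Figure D2:**
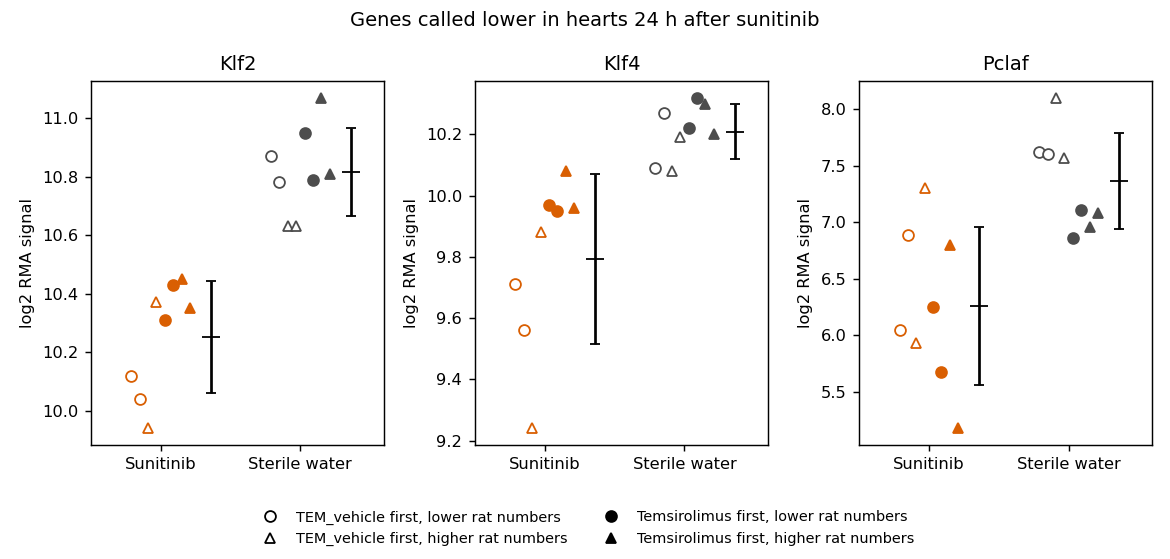
Log2 RMA signal (vertical axes) of the 3 called genes in each heart, sunitinib on the left and sterile water on the right, with the mean and SD of 8 rats as a bar. Klf2 groups do not overlap, Klf4 groups meet at 10.08, and Pclaf groups overlap between 6.86 and 7.30.

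Outside the 3 calls, the genes whose 8 sunitinib and 8 water hearts did not overlap were Ska1, Fzd5 and Adh1c, named here after their values were seen. Ska1, which codes for a spindle and kinetochore protein, had a low signal of 3.99 to 4.54 in sunitinib hearts and 4.55 to 4.90 in water hearts (change -0.42 ± 0.16, SE, adjusted p = 0.24). Fzd5, a Wnt receptor gene, stood at 6.60 to 7.04 in sunitinib hearts and 6.41 to 6.58 in water hearts (change 0.26 ± 0.07, adjusted p = 0.11). Adh1c, an alcohol dehydrogenase abundant in liver, stood at 8.94 to 12.13 in sunitinib hearts and 7.55 to 8.81 in water hearts (change 1.43 ± 0.39, adjusted p = 0.13). Its change was 2.11 within the lower rat numbers, where the hepatocyte markers were high, and 0.74 within the higher. Dimmer probe sets had smaller changes, 0.07 ± 0.07 for Fzd5 (mean 5.12) and 0.31 ± 0.20 for Adh1c (mean 6.64).

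Most genes of cell proliferation had negative changes, and none passed the test. Of 24 measured members 0 were called in either direction, 23 had a negative change and 11 were lower at an unadjusted p under 0.05, beside 7.28% of all genes lower at that level. Their median change was -0.19, against -0.01 over all genes. Within the higher rat numbers 21 of 24 were negative with a median of -0.18, within the lower 22 of 24 with a median of -0.21, and without the 5 hearts of high hepatocyte level 23 of 24 with a median of -0.22. With the hepatocyte level as a covariate 21 of 24 were negative with a median of -0.21. By first agent, 19 of 24 were negative after Temsirolimus (median -0.13, 2 lower at an unadjusted p under 0.05, 0 called). In that stratum 272 of all 14218 genes were lower at that level. After TEM_vehicle 22 of 24 were negative (median -0.32, 11 lower at that level, 2 called). Of all 14218 genes 1839 were lower at that level there and 363 were called lower. The difference of the 2 effects was positive in 20 of 24, beside 7899 of all 14218 genes. It was positive at an unadjusted p under 0.05 in 3 of 24, beside 1120 of all 14218 genes, and 0 of 24 were called. The members named below were taken for their unadjusted p after the values were seen. Pclaf is not on this list.

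Mki67, whose Ki-67 protein marks cycling cells, ran from 6.64 to 8.18 with a median of 7.56 in sunitinib hearts and from 7.85 to 8.82 with a median of 8.25 in water hearts (change -0.73 ± 0.23, SE, adjusted p = 0.18). Bub1b, a spindle checkpoint kinase gene, ran from 5.29 to 5.82 with a median of 5.52 in sunitinib hearts and from 5.70 to 6.26 with a median of 6.07 in water hearts (change -0.49 ± 0.13, adjusted p = 0.12). The groups overlapped for each. Top2a (topoisomerase II alpha), Cdk1 (the mitotic cyclin-dependent kinase) and Ccna2 (cyclin A2) had changes of -0.54, -0.59 and -0.47, with adjusted p of 0.20 to 0.35. The replicative helicase genes Mcm2, Mcm3, Mcm4 and Mcm5 had changes of -0.24, -0.19, -0.37 and -0.23. The D cyclins did not share this: Ccnd1 and Ccnd2 had changes of 0.01 ± 0.10 and -0.01 ± 0.13.

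**Figure D3:**
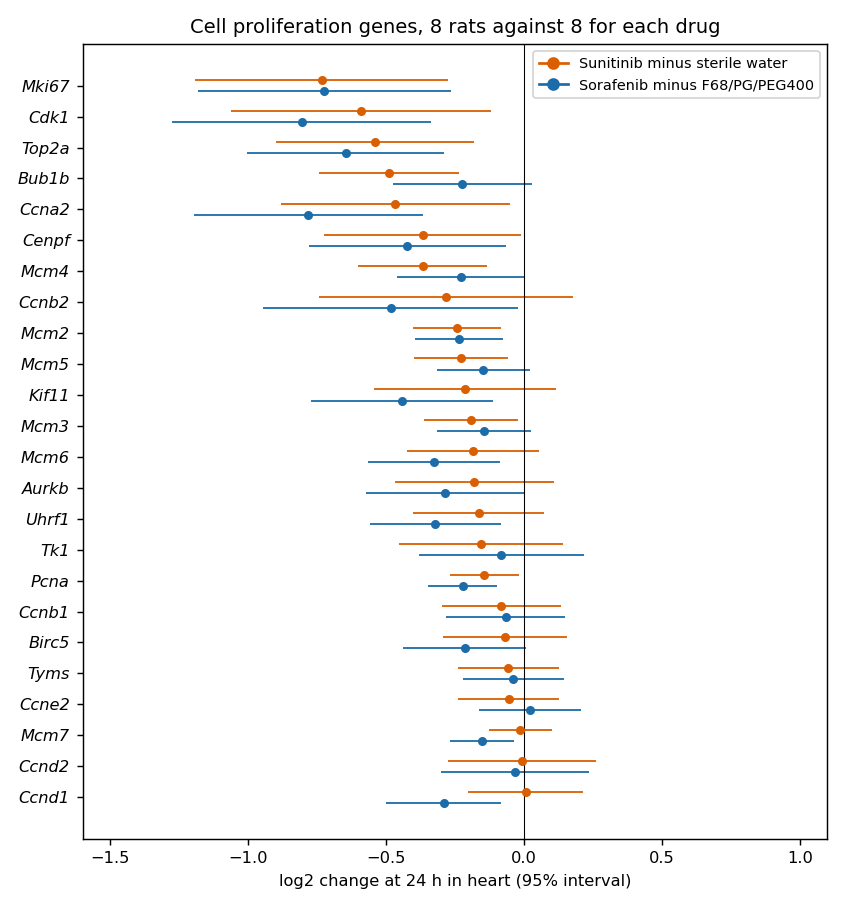
Log2 change at 24 h in heart (horizontal axis, with 95% intervals) of 24 cell proliferation genes for sunitinib minus sterile water and for sorafenib minus F68/PG/PEG400, 8 rats against 8 for each drug. All sunitinib points but that of Ccnd1 lie below 0, and the sunitinib and sorafenib intervals overlap for each gene.

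The start regions of some of these genes are shown because most proliferation genes had changes of one sign and cell-cycle promoters carry known motifs. They are the 250 bases before the RefSeq start in GRCr8, 5′ to 3′ on the gene's strand, for Klf4 (chr5:75078593-75078842, minus strand), Pclaf (chr8:75315467-75315716, plus strand), Mki67 (chr1:199952594-199952843, minus strand) and Top2a (chr10:84473094-84473343, minus strand). Capitals mark the CCAAT box (CCAAT), the cell-cycle homology region or CHR (TTTGAA) and an E2F site (GCGGGAA), each on either strand, where overlapping matches run together.
Klf4: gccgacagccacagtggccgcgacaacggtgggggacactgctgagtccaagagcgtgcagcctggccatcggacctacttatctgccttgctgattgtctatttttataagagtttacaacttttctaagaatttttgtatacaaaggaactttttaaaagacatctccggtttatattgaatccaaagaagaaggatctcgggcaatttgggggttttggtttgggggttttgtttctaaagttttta
Pclaf: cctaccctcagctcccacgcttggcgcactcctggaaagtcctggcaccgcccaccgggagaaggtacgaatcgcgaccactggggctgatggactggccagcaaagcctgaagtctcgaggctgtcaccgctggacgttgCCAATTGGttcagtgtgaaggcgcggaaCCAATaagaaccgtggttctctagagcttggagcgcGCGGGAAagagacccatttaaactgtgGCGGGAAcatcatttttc
Mki67: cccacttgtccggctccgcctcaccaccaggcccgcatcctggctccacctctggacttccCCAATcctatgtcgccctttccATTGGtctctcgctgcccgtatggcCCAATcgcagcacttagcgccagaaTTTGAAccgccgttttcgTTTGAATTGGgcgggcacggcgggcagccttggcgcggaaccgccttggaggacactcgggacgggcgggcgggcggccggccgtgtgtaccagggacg
Top2a: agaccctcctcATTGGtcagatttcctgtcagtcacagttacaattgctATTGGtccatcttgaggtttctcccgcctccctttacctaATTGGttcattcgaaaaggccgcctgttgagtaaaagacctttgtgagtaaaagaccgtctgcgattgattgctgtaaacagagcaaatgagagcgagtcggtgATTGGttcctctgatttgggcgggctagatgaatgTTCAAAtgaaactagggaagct

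The Pclaf window held 3 CCAAT boxes and 2 E2F sites, the Mki67 window 4 CCAAT boxes and 2 CHR matches, and the Top2a window 4 CCAAT boxes and 1 CHR match. The Klf4 window held none of the 3 motifs. Promoters were matched for 18 of the 25 listed proliferation genes, of which 14 held a CCAAT box, 6 a CHR and 3 an E2F site. Of all 33469 promoters, 34% held a CCAAT box, 16.2% a CHR and 3.36% an E2F site in the same window. These matches are letters in a reference genome, and no binding was measured.

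The receptor kinases that sunitinib blocks were all measured, and 0 of 9 were called at 24 h. Their median change was 0.05, and 3 were higher at an unadjusted p under 0.05, beside 4.69% of all genes higher at that level. Among the VEGF receptor genes, Flt1 ran from 6.94 to 7.58 with a median of 7.40 in sunitinib hearts and from 6.57 to 7.29 with a median of 7.08 in water hearts (change 0.31 ± 0.13, SE, adjusted p = 0.29). The other Flt1 probe sets, with means of 6.82 and 6.60, had changes of 0.31 and -0.11. Kdr, the main VEGF receptor of endothelium, ran from 10.36 to 10.81 in sunitinib hearts and from 10.46 to 11.14 in water hearts (change -0.05, 95% interval -0.26 to 0.16). Flt4, the VEGF receptor of lymphatic endothelium, ran from 7.00 to 7.37 in sunitinib hearts and from 6.82 to 7.26 in water hearts (change 0.15 ± 0.06, adjusted p = 0.27). The groups overlapped for all 3.

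Pdgfra, of fibroblasts, and Pdgfrb, of mural cells, had changes of -0.12 (95% interval -0.27 to 0.03) and 0.11 (95% interval -0.07 to 0.30). The sign for Pdgfrb depended on the probe set. The one used had a mean of 8.38, and the others, with means of 8.18 and 7.90, had changes of -0.11 and -0.09. Kit, the stem cell factor receptor, ran from 5.61 to 6.20 in sunitinib hearts and from 5.38 to 5.94 in water hearts, a low signal on this array (change 0.20 ± 0.08, adjusted p = 0.25). Flt3, the receptor of early blood cells, was also dim (mean 5.97), with a change of -0.07. Ret, the GDNF receptor, had a mean of 6.84 and a change of 0.05. Csf1r, the macrophage receptor, ran from 9.13 to 9.39 in sunitinib hearts and from 8.97 to 9.44 in water hearts (change -0.04, 95% interval -0.22 to 0.14).

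Of the ligands of these receptors 11 of 13 were measured and 0 were called. Pdgfc, a PDGF chain, had the lowest unadjusted p of them. It ran from 5.22 to 5.67 in sunitinib hearts and from 4.95 to 5.34 in water hearts, a low signal on this array. Its change was 0.25 ± 0.06 (SE, adjusted p = 0.11) and was 0.26 within the higher rat numbers. Of 25 measured endothelial identity genes 18 had a negative change and 0 were called (median -0.06), and Ecscr, an endothelial surface protein gene, had a change of -0.35 ± 0.11 (adjusted p = 0.18). Tip-cell genes (24 measured), Notch and ephrin genes (13), mural cell genes (15) and fibroblast and collagen genes (18) held no call, and their median changes lay between -0.01 and 0.04. Among the 19 Kruppel-like and FOXO factor genes, 2 were called lower, Klf2 and Klf4, and the median change was -0.03.

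No gene of the contractile program was called. The 19 measured sarcomere and calcium handling genes had changes between -0.07 and 0.07, with 0 at an unadjusted p under 0.05, and Myh6, the alpha myosin heavy chain, had a change of -0.03 (95% interval -0.11 to 0.05). Of 19 cardiac stress genes 0 were called. Nppa and Nppb, the natriuretic peptide genes, had changes of -0.23 ± 0.28 and 0.03 ± 0.16. The aryl hydrocarbon receptor targets (10 measured) and the glucocorticoid responsive genes (15) held 0 calls and 0 members at an unadjusted p under 0.05, and Cyp1a1 had a change of -0.11 ± 0.07. Hk2, hexokinase 2, ran from 7.79 to 8.86 in sunitinib hearts and from 6.59 to 8.35 in water hearts (change 0.65 ± 0.19, adjusted p = 0.15). Cholesterol synthesis and uptake genes were mostly positive, 13 of 15, with a median of 0.17 and 0 calls, but this did not hold throughout. The median was 0.25 in the lower rat numbers and 0.06 in the higher, and 0.37 after Temsirolimus but -0.02 after TEM_vehicle, where 8 of 15 were negative. With the hepatocyte level as a covariate it was -0.01, with 9 of 15 negative.

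The first agent was set against the sunitinib effect next. Within rats given Temsirolimus first, sunitinib against water gave 0 called genes higher (0%) and 0 lower (0%), with 608 at an unadjusted p under 0.05. Within rats given TEM_vehicle first it gave 146 called higher (1.03%) and 363 lower (2.55%). The difference of the 2 effects was called for 0 genes higher (0%) and 0 lower (0%), with 1905 at an unadjusted p under 0.05 and a smallest adjusted p of 0.13. The call in 1 stratum and not in the other is thus not shown to be a difference for any gene. The 509 calls within TEM_vehicle moved with single rats: there were 0 without rat 7M83, 7 without rat 1M5, 11 without rat 1M11, 255 without rat 7M78, 1082 without rat 7M84 and 1321 without rat 1M6. The mean distance of a heart to the other 3 of its group was 59.7 for rat 7M83, 66.5 for rat 1M5 and 45.1 to 55.1 for the other 6 hearts given TEM_vehicle. It was 63.8 to 65.8 in the 4 hearts given Temsirolimus then Sunitinib and 37.9 to 42.6 in those given Temsirolimus then sterile water, beside a median of 48.2 over the 96 hearts. Within TEM_vehicle, the lower rat numbers alone gave 0 calls and the higher alone gave 1.

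For the 3 genes called over all 16 hearts the 2 effects had one sign, and their difference was not called. Klf2 had a change of -0.52 ± 0.13 after Temsirolimus and -0.61 ± 0.13 after TEM_vehicle (difference 0.09, 95% interval -0.28 to 0.47). Klf4 had changes of -0.27 ± 0.12 after Temsirolimus and -0.56 ± 0.12 after TEM_vehicle (difference 0.29, 95% interval -0.06 to 0.64), and Pclaf by -1.02 ± 0.33 after Temsirolimus and -1.18 ± 0.33 after TEM_vehicle (difference 0.15, 95% interval -0.77 to 1.08). The TEM_vehicle calls included Kit among the target kinases (0.39 ± 0.11, adjusted p = 0.030), Pdgfc among their ligands (0.39 ± 0.09, adjusted p = 0.012), and Mcm4 and Bub1b among the proliferation genes (each -0.61).

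Myh7, the slow beta myosin heavy chain that rises in stressed rodent ventricles, had the lowest unadjusted p for this difference of the 19 measured cardiac stress genes. It had a change of 0.36 ± 0.39 after Temsirolimus and -1.57 ± 0.39 after TEM_vehicle (adjusted p = 0.019), and the difference, 1.93 ± 0.55, was not called (adjusted p = 0.22). Its level ran from 10.29 to 12.91 in the 8 sunitinib hearts and from 11.52 to 12.83 in the 8 water hearts.

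The effect at 24 h was set against those at 1 h and 6 h, where other rats had the same doses. At 6 h sunitinib gave 42 genes called higher (0.295%) and 68 lower (0.478%). The 24 h effect minus the 6 h effect was called for 9 genes higher (0.0633%) and 11 lower (0.0774%), and the 24 h effect minus the 1 h effect for 0 higher (0%) and 0 lower (0%), with 829 at an unadjusted p under 0.05. The 20 calls of 24 h against 6 h became 2 without the 5 hearts of high hepatocyte level, and 5 to 52 with a rat left out (5 without rat 1M5). Each of the 6 genes named by size of t was called at 6 h and not at 24 h. Picking them by the 24 h minus 6 h difference favours such a pattern.

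Spry4, a feedback inhibitor of receptor kinase and ERK signalling, had changes of -0.36 at 1 h, -0.54 at 6 h and -0.05 at 24 h. At 24 h it ran from 8.24 to 8.62 in sunitinib hearts and from 8.23 to 8.57 in water hearts. At 6 h it ran from 7.73 to 8.30 in sunitinib hearts and from 8.32 to 8.66 in water hearts, with no overlap. The difference of the 24 h and 6 h effects was 0.49 (adjusted p = 0.0029). Prdm1, a transcriptional repressor gene, had changes of -0.41 at 1 h, -0.52 at 6 h and 0.06 at 24 h (24 h minus 6 h, 0.58, adjusted p = 0.0086), and Ccnd1, cyclin D1, of -0.07, -0.67 and 0.01 at the same times (0.68, adjusted p = 0.031).

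In the other direction, Fam107a, a stress-induced actin-associated protein gene, had changes of -0.04 at 1 h, 0.82 at 6 h and -0.12 at 24 h (24 h minus 6 h, -0.94, adjusted p = 0.0045). At 6 h it ran from 7.61 to 8.93 in sunitinib hearts and from 6.96 to 7.66 in water hearts. Myorg, a glycosidase gene, and Hist2h2be, a histone H2B gene, had 6 h changes of 0.54 and 0.48 and 24 h changes of -0.15 and -0.13 (24 h minus 6 h, -0.70 and -0.61, adjusted p = 0.00043 and 0.011). All 6 genes had 24 h changes between -0.15 and 0.06 in the probe sets used. A dimmer Fam107a probe set, with a mean of 6.02, had a 24 h change of the other sign (0.19 ± 0.08, SE, limma unadjusted p = 0.023). The other Myorg probe sets had 24 h changes of -0.10, 0.08 and 0.14. The call of the 24 h minus 6 h difference held with each rat left out for Spry4, Prdm1, Fam107a, Myorg and Hist2h2be. For Ccnd1 it held in 23 of 32 such fits (limma adjusted p up to 0.073). Without the 5 hearts of high hepatocyte level 1 gene was called higher and 1 lower, so most of the 6 were not called there.

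Kdr was called lower at 6 h (-0.62 ± 0.11, adjusted p = 0.00013), and the difference of its 24 h effect, 0.58 ± 0.15, was not called (adjusted p = 0.088). Of the 23 measured VEGF and ERK early response genes 4 were called lower at 6 h, Egr1 (-0.77), Spry4, Dusp1 (-0.43) and Etv4 (-0.33), and 0 were called at 24 h, where Egr1 had a change of -0.35 ± 0.16 (adjusted p = 0.37).

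The 3 genes called at 24 h were farther from 0 there than at 1 h or 6 h, with no difference between times called. Picking them by their 24 h call favours such a pattern. Klf2 had changes of -0.02 at 1 h, -0.37 at 6 h (adjusted p = 0.031) and -0.56 at 24 h, and Klf4 of -0.11, -0.22 and -0.41 at the same times. Pclaf had changes of -0.31, -0.20 and -1.10. The adjusted p of the 24 h minus 6 h difference was 0.64 for Klf2, 0.61 for Klf4 and 0.30 for Pclaf. The proliferation genes had negative changes at 1 h too. There all 24 were negative, with a median of -0.23, 6 lower at an unadjusted p under 0.05 and 0 called. Of all 14218 genes at 1 h, 7456 were negative, 391 were lower at that level and 2 were called lower, with a median of -0.004. At 6 h the median of the proliferation genes was -0.04 with 1 called lower, Ccnd1. Over all genes the 6 h median was 0.007, and 68 were called lower. At 24 h the median of the proliferation genes was -0.19. The 24 h minus 1 h differences had a median of -0.01, with 0 at an unadjusted p under 0.05.

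**Figure D4:**
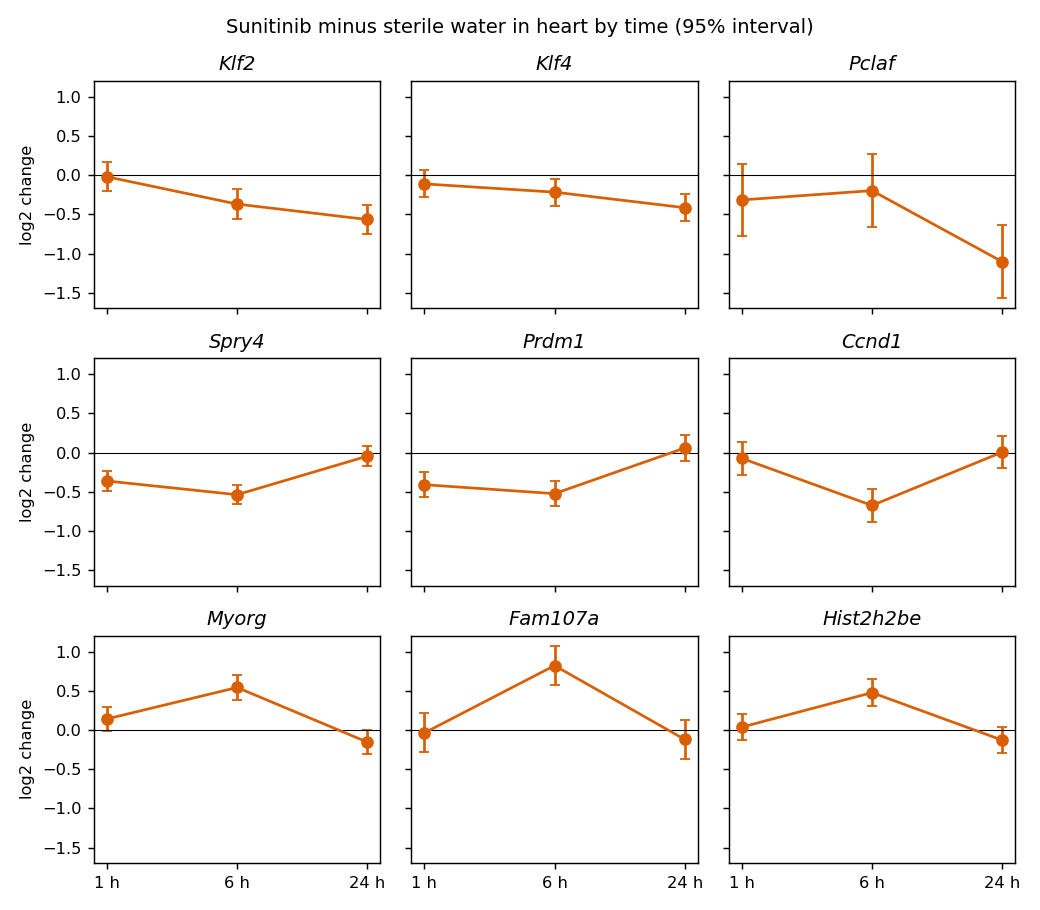
Log2 change, sunitinib minus sterile water in heart (vertical axes, with 95% intervals), at 1, 6 and 24 h, from 8 rats against 8 at each time. Klf2, Klf4 and Pclaf have their lowest point at 24 h, whereas Spry4, Prdm1, Ccnd1, Myorg, Fam107a and Hist2h2be are farthest from 0 at 6 h and lie between -0.15 and 0.06 at 24 h. The genes were picked by the 24 h call or by the 24 h minus 6 h difference, and each is read by its brightest probe set.

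Sorafenib, the other kinase inhibitor of the series, was set against sunitinib at 24 h, each drug over its own vehicle and with no shared rats. The doses differed, 5 mg/kg of sunitinib and 25 mg/kg of sorafenib. Sorafenib alone gave 44 genes called higher (0.309%) and 295 lower (2.07%). The sunitinib effect minus the sorafenib effect was called for 33 genes higher (0.232%) and 5 lower (0.0352%), together 38, and for 19 without the 5 hearts of high hepatocyte level. Of 17 measured resident macrophage genes 11 were called higher in this difference, and 0 were called in the sunitinib comparison itself, where their changes lay between -0.26 and 0.18 with a median of -0.05.

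Fcmr, an Fc receptor gene, ran from 9.34 to 9.77 in sunitinib hearts and from 9.26 to 9.81 in water hearts. It ran from 7.98 to 8.53 in sorafenib hearts and from 9.29 to 9.98 in F68/PG/PEG400 hearts. The change was 0.02 for sunitinib and -1.47 for sorafenib, a difference of 1.48 (adjusted p = 3.4e-13). F13a1, the factor XIII A chain of tissue macrophages, had changes of -0.09 for sunitinib and -2.13 for sorafenib (difference 2.04, adjusted p = 1.5e-09), and Stab1, a scavenger receptor gene, of 0.02 and -0.99 (difference 1.01, adjusted p = 2.5e-08). Csf1r had changes of -0.04 for sunitinib and -0.86 for sorafenib (difference 0.82, adjusted p = 2.7e-05).

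Lower in the same difference were Tpd52l1, of the tumor protein D52 family (-0.65 for sunitinib and 0.53 for sorafenib, difference -1.18, adjusted p = 0.025), Colq, the collagen tail of acetylcholinesterase (-0.09 and 0.52, difference -0.60, adjusted p = 5.7e-05), and Mamdc2 (-0.17 and 0.43, difference -0.60, adjusted p = 0.018). With a rat left out, Tpd52l1 was called in 21 of 32 fits (limma adjusted p up to 0.079) and Mamdc2 in 28 (up to 0.073). Fcmr, F13a1, Stab1 and Colq were called in all 32. Klf2 had changes of -0.56 for sunitinib and -0.20 for sorafenib (difference -0.36, adjusted p = 0.68), Klf4 of -0.41 and -0.26 (difference -0.16, adjusted p = 1.0) and Pclaf of -1.10 and -0.93 (difference -0.17, adjusted p = 1.0). For Pclaf the sorafenib change was itself called (adjusted p = 0.013), as were those of Top2a, Cdk1, Ccna2 and Pcna. Of the 24 proliferation genes 0 were called in the difference of the drugs. A missed threshold does not show that the drugs act alike.

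**Figure D5:**
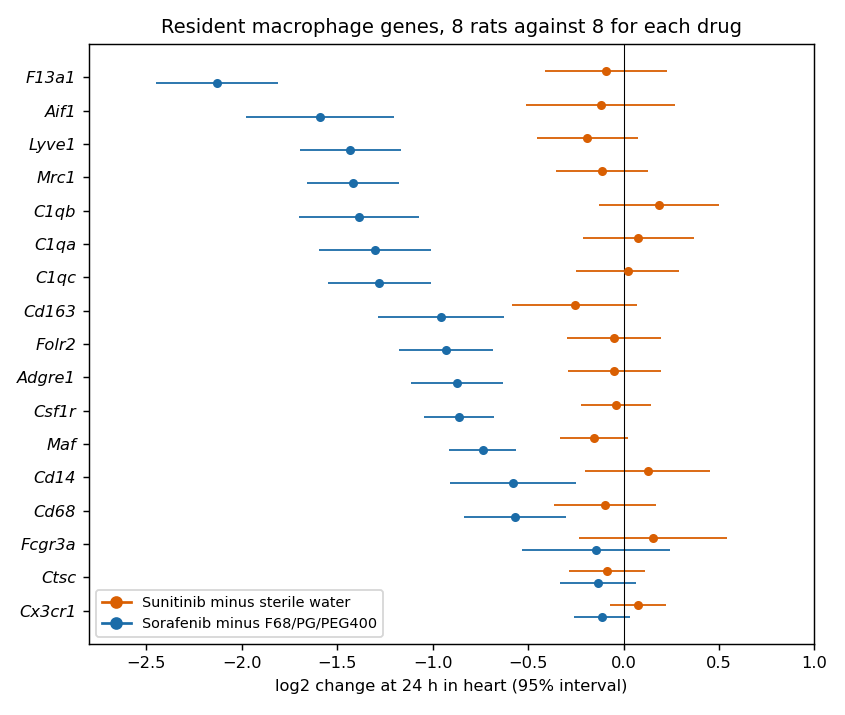
Log2 change at 24 h in heart (horizontal axis, with 95% intervals) of 17 resident macrophage genes for sunitinib minus sterile water and for sorafenib minus F68/PG/PEG400, 8 rats against 8 for each drug. Sunitinib points lie between -0.26 and 0.18, and the lowest sorafenib point, that of F13a1, lies at -2.13.

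The sunitinib effect in heart was last set against that in the liver and the bone marrow of the same rats. Each rat gave the difference of its tissues' values, and these differences were compared between sunitinib and water rats. The levels of the tissues themselves were not compared. For the effect in heart minus that in liver, 0 genes were called higher (0%) and 0 lower (0%), with 1437 at an unadjusted p under 0.05. For the effect in heart minus that in marrow, 5 were called higher (0.0352%) and 3 lower (0.0211%). These 8 calls became 2 without rat 7M83 or without rat 1M5, 146 without rat 7M84 and 3 to 27 without each of the others. Klf2 had a change of -0.56 in heart and 0.15 in marrow (difference -0.71, adjusted p = 4.1e-05). This difference of the effects was called with each of the 16 rats left out. In marrow Klf2 ran from 9.75 to 9.98 in sunitinib rats and from 9.57 to 9.94 in water rats. Klf4 had changes of -0.41 in heart and 0.26 in marrow (difference -0.67, adjusted p = 0.00051), and Tmem47, a membrane protein gene, of -0.11 in heart and 0.33 in marrow (difference -0.43, adjusted p = 0.047). A dimmer Tmem47 probe set, with a mean of 7.86 in heart, had a heart change of the other sign (0.37 ± 0.28, SE).

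The sunitinib effect was called higher in heart than in marrow for Akr7a2, an aldehyde reductase gene (0.12 in heart and -0.37 in marrow, difference 0.49, adjusted p = 0.025), Thop1, an oligopeptidase gene (0.09 and -0.34, difference 0.42, adjusted p = 0.025), and Tceal8 (0.25 and -0.25, difference 0.50, adjusted p = 0.029). For Akr7a2 the marrow change was itself called (adjusted p = 0.00065), while its heart change was not. With a rat left out, the difference between the heart and marrow effects was called in 16 of 16 fits for Klf4. It was called in 11 for Thop1, 10 for Akr7a2, 8 for Tceal8 and 4 for Tmem47 (adjusted p up to 0.18). In liver, Klf2, Klf4 and Pclaf had changes of -0.13, 0.09 and -0.60, none called. The differences between the heart and liver effects were not called (adjusted p of 0.47, 0.47 and 0.52). Sunitinib livers were widely spread for some genes. Klf2 ran from 7.17 to 8.60 in them with a median of 8.14, and Klf4 from 6.83 to 7.97 with a median of 7.02. Tceal8 ran from 8.48 to 10.34 in sunitinib livers and from 9.89 to 10.42 in water livers.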

How the data were processed

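RNA of 288 tissue samples was hybridised to Affymetrix rat expression arrays. The deposited values are log2 signals per probe set, which the authors made with RMA over the arrays; the version is not given in the sources used here. They are hybridisation signals with no read depth, so the 8 rats on each side limit the precision. Of 31099 probe sets, 20832 had 1 gene symbol in the platform annotation, 436 had several and 9831 were not listed. Symbols were updated through gene identifiers to RefSeq (GRCr8), and each gene was read by its brightest probe set (by the mean signal of the 96 hearts), which gave 14218 genes.

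limma 3.58.1 (R 4.3.3) was fitted over the 96 hearts with 24 group means and an array-set term within each time (lmFit, contrasts, eBayes; Benjamini-Hochberg threshold 0.05). Tissue comparisons used within-rat differences of the 32 rats of 24 h. The script was tested on simulated data. Named genes were the called genes (at most 12 per direction), up to 4 called members of a list, all 9 target kinases, and the 3 largest positive and negative t of each other comparison; other names were chosen after their values were seen. The rule for the members read only the sample titles. Earlier results of these data were known when the members, the 29 gene groups and the 16 marker lists were chosen. Promoters are from RefSeq (GRCr8); 2 of the 3 called genes were matched. Alternatives were the samples fitted, array sets, first agents, a signal filter at 6, renewed quantile normalization, mean over probe sets, hepatocyte level as a covariate, array weights, each rat left out, and, chosen after seeing the data, removal of the 5 hearts with a hepatocyte level over 7. Replicates are separate rats.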

Additional observations from a re-analysis of the deposited data

Results flagged for a closer look

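Of 188 groups of 4 hearts examined over the genes and marker lists of the text, 16 held 1 heart far from the other 3 (chance gives about 1 in 20). Among sunitinib hearts given Temsirolimus first these were rat 5M54 for the cardiomyocyte marker level (14.23) and rat 5M60 for the endothelial marker level (10.18). Among sunitinib hearts given TEM_vehicle first they were rat 7M78 for Flt3 (5.69) and Ret (6.99), rat 7M84 for Fam107a (7.93) and the T and NK cell marker level (7.43), rat 7M77 for Fcmr (9.34) and rat 7M83 for Mamdc2 (6.72). Among water hearts given Temsirolimus first they were rat 3M35 for Fam107a (7.31), rat 3M29 for Akr7a2 (9.27), rat 3M30 for the neutrophil marker level (6.86) and rat 3M36 for the endothelial marker level (10.32). Among water hearts given TEM_vehicle first they were rat 1M11 for Pclaf (8.10), rat 1M12 for Adh1c (8.06) and the erythroid marker level (10.16), and rat 1M5 for the hepatocyte marker level (7.78). Rat 1M11 lay above the other water hearts for Pclaf, a called gene, and without it the Pclaf change was -1.06 (adjusted p = 0.17).

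The sunitinib effect differed between 24 h and 6 h for Spry4 (0.49), Prdm1 (0.58), Ccnd1 (0.68), Myorg (-0.70), Fam107a (-0.94) and Hist2h2be (-0.61), each by the limma test of the difference. Against the sorafenib effect at 24 h the sunitinib effect differed for Fcmr (1.48), F13a1 (2.04), Stab1 (1.01), Csf1r (0.82), Prdm1 (0.50), Colq (-0.60), Mamdc2 (-0.60) and Tpd52l1 (-1.18). The calls of Mamdc2 and Tpd52l1 were lost in some fits with a rat left out. Between heart and bone marrow the sunitinib effect differed for Klf2 (-0.71), Klf4 (-0.67), Akr7a2 (0.49), Thop1 (0.42), Tceal8 (0.50) and Tmem47 (-0.43).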

How the results depend on the processing

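The number of genes called in sunitinib hearts, 3, moved to 258 (195 higher) without the other hearts of high hepatocyte level, 123 (112 higher) in the lower rat numbers, 0 in the higher rat numbers, 509 after TEM_vehicle, 0 after Temsirolimus, 0 with the mean over probe sets, 24 with the hepatocyte level as a covariate, 1 with renewed quantile normalization, 1 without array-set terms and 0 without the 5 hearts of high hepatocyte level. It ran from 1 to 161 with each rat left out, 161 being without rat 1M6 and 66 without rat 7M84. The fits on 16 or 32 arrays, with array weights or on signals of at least 6 gave 2 or 3. Klf2 kept its call except in the higher rat numbers, after Temsirolimus, with the mean over probe sets and without the 5 hearts. The count for 24 h against 6 h, 20, was 13 without array-set terms and 2 without the 5 hearts, and ran from 5 to 52 with a rat left out. That against sorafenib, 38, was 19 without the 5 hearts and ran from 32 to 42. That against marrow, 8, was 2 without array-set terms and ran from 2 to 146. That for 24 h against 1 h stayed at 0 with each rat left out, that by first agent ran from 0 to 18 (18 without rat 7M84, 15 without rat 1M6) and that against liver from 0 to 1. The cause of these moves was not tested. No paired analysis was possible because sunitinib and water hearts came from different rats with no shared replicate numbers in the labels (pairing within a rat was used between tissues only). Arrays give no depth, and dim genes such as Ska1, Pdgfc, Kit and Flt3 lie near the low end of the signal.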
